A study of Mus musculus with 12 samples.

Results

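Wild-type (ATF4WT) mouse embryonic fibroblasts treated for 24 h with 2 ug/mL tunicamycin were compared with untreated wild-type fibroblasts. The comparison uses 4 of the 12 arrays of the series, picked by their titles: 2 arrays of wild-type cells after 24 h of tunicamycin and 2 arrays of untreated wild-type cells. Its members are the 611 mouse miRNAs among the 650 miRNA names on the array, the other 39 being viral. All 611 are accounted for, and 145 of them were bright enough to be tested.

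The series also holds 2 arrays each of wild-type cells after 12 h of tunicamycin, of ATF4 knockout (KO) cells after 24 h and after 12 h, and of untreated KO cells. All cells were embryonic fibroblasts of the C57BL/6 background, and every group, the untreated ones included, grew in serum-containing medium with 2-mercaptoethanol and added non-essential amino acids. The series design describes the 2 arrays of a group as independent experiments. The labels do not state how the knockout was made, the passage of the cells, or whether a genotype is 1 line or several.

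Tunicamycin blocks N-linked glycosylation, so that glycoproteins misfold in the endoplasmic reticulum (ER) and the unfolded protein response starts through its sensors PERK, IRE1 and ATF6. PERK phosphorylates the translation factor eIF2alpha, which slows most protein synthesis but favours translation of ATF4, a transcription factor for amino acid metabolism and redox balance. miRNAs are short RNAs that guide Argonaute proteins to messenger RNAs, mainly by pairing of the seed at bases 2 to 8, and several are cut from a single transcript, so that relatives by sequence and neighbours by position are natural groups in which to read them.

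Mature sequences are shown here for the miRNAs on which the results turn, with the seed in capitals, from RefSeq's table for GRCm38.p6, written 5′ to 3′. The array carries older names without an arm, and each was matched by hand to the arm that now holds that name. A sequence was matched for 16 of the 22 miRNAs that passed the test at 24 h. The first set shares the seed of the miR-15/16 family, known for restraining the cell cycle through cyclins and Bcl2, and all of its tested members are shown because they lay on the same side at 24 h.
miR-15a: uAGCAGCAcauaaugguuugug
miR-15b: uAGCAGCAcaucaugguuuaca
miR-16: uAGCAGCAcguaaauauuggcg
miR-195: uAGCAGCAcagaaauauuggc
miR-322: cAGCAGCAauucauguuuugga
miR-497: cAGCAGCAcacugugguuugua

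The second set holds smaller seed families with a member that fell. It opens with miR-34a and miR-34b-5p, induced by p53. It also holds miR-26a and miR-26b, hosted by genes of the Ctdsp family, and miR-148a and miR-152, known to target the DNA methyltransferase Dnmt1. The others are miR-146a and miR-146b, which restrain NF-kB signalling, and miR-103 and miR-107, which lie in genes of pantothenate kinases.
miR-34a: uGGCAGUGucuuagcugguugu
miR-34b-5p: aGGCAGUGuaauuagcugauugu
miR-26a: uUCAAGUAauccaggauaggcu
miR-26b: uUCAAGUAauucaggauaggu
miR-148a: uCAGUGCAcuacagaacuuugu
miR-152: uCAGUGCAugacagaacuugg
miR-146a: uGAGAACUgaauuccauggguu
miR-146b: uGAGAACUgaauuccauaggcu
miR-103: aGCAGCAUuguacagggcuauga
miR-107: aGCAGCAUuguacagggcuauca

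The third set shows miRNAs with a shared seed whose differences at 24 h had opposite signs, and below them miR-210 and miR-130a, which fell. Left out are miR-25 (-0.44) and miR-92a (0.44), which also share a seed and of which neither passed. No other tested miRNA shown here shares the seed of miR-210 or miR-130a. Sequences were matched for 47 names only, and relatives among the other tested miRNAs were not sought.
miR-222: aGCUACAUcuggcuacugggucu
miR-221: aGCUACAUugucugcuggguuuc
miR-106b: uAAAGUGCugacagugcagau
miR-93: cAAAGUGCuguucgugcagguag
miR-20a: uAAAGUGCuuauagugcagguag
miR-210: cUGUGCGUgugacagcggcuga
miR-130a: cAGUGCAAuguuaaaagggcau
Members so alike can bind each other's probes: miR-103 and miR-107 differ at 1 base and miR-146a and miR-146b at 2 bases, counted from the 5′ end over their full length, and how far the probes share signal was not tested.

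Total RNA was labelled with Cy3 and read on 1-colour Agilent miRNA arrays. A level is given throughout as the log2 of a miRNA's summed probe signal divided by a scaling signal of its array, so that a level of 0 equals that scaling signal. The scaling signal was 288.3 and 354.1 in 24 h cells, against 577.0 and 555.7 in untreated cells, in arbitrary units: the treated arrays were dimmer before scaling. Of the array maker's control RNAs, dmr_31a alone had separate groups, and it was lower on the 24 h arrays. The total signal of dmr_3 was 1551 and 959.0 on the 24 h arrays, against 1033 and 842.8 on the untreated arrays, and that of dmr_31a was 30.14 and 15.96, against 81.60 and 35.64. The groups overlapped for dmr_3, dmr_285 and dmr_6. Levels below a floor of -4.96 were raised to it. Well above background, by the flags of the authors' software, were 105 and 133 mouse miRNAs on the 24 h arrays, against 148 and 122 on the untreated arrays. The 8 tunicamycin arrays of the series shared 1 slide and the 4 untreated arrays another, which means that slide and treatment cannot be told apart, and no mRNA is measured that would check the genotype. In such bulk samples fewer cells of a type and less RNA per cell cannot be told apart either.

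The fibroblast label was set against miRNAs known from fibroblasts and from other cell types. Of 15 fibroblast-abundant miRNAs on the array 14 were tested, and their summed level, on the linear scaled scale, was 42.6 and 37.2 in 24 h cells and 56.0 and 56.0 in untreated cells. The largest single part was miR-21, which lies within the gene Vmp1 and gave 27.5% and 21.9% of all miRNA signal in 24 h cells, against 32.7% and 34.0% in untreated cells. None of the 7 epithelial, 7 muscle, 8 blood and endothelial or 15 pluripotent-cell miRNAs on the array was well above background on any of these 4 arrays. Of 8 neural miRNAs 6 were not, and the exceptions were miR-129-5p and miR-129-3p.

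After 24 h of tunicamycin 22 of the 145 tested miRNAs passed the test, and all 22 were lower than in untreated cells. The test was limma's moderated fit over all 12 arrays with Benjamini-Hochberg adjustment over the 145 miRNAs at 0.05, and its calls are 15.2% of the miRNAs tested in the lower direction and 0% in the higher direction. By limma 50 miRNAs (34.5%) had an unadjusted p under 0.05. The median difference over the 145 was -0.17, and 17 of the 22 miRNAs that passed were more than 0.5 below that median. Regardless of the test, 76 miRNAs (52.4%) had both 24 h arrays below both untreated arrays, 26 (17.9%) had both above, and for 43 (29.7%) the groups overlapped.

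**Figure D1:**
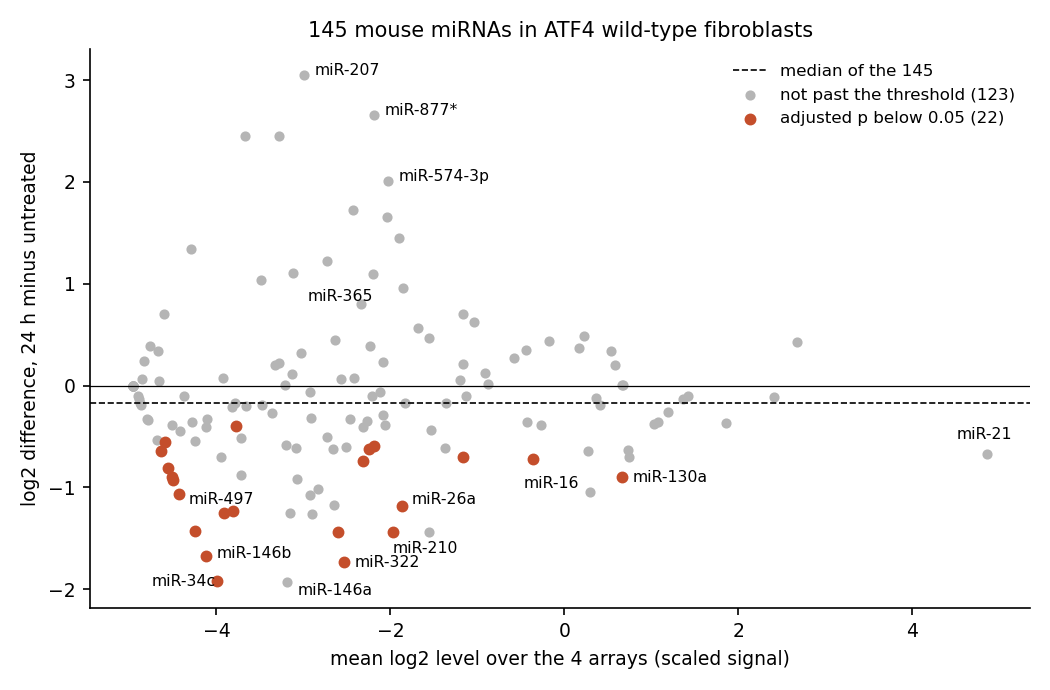
Log2 difference (24 h minus untreated, vertical) against the mean log2 level over the 4 arrays (horizontal) for the 145 tested mouse miRNAs; each point is 1 miRNA, the 22 that passed the test are coloured, and the dashed line is the median of -0.17. Every coloured point lies below 0, while the points farthest above 0, led by miR-207 at 3.05, did not pass.

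Detection went the same way only in part. Of the 611 mouse miRNAs, 443 were well above background on none of the 4 arrays and 98 on all 4. There were 12 that were well above background on both untreated arrays and neither 24 h array: miR-101b, miR-146b, miR-152, miR-195, miR-30b, miR-34b-5p, miR-34c, miR-467a, miR-467e, miR-497, miR-532-5p and miR-99a. The reverse held for 4, namely miR-1196, miR-207, miR-466h and miR-468. Another 21 were well above background on 1 untreated array alone of the 4, and 16 on 1 24 h array alone. Among the 22 calls, 11 were well above background on both 24 h arrays, 2 (miR-143 and miR-148a) on 1, and 9 on neither. For those 9 the fold is a lower bound, set by the lowest signal well above background on the 24 h arrays. The bound allows for the detection limit only, and the p of a miRNA at the floor leaves out any spread below it. Of the individual probes, 17 were well above background on all 4 arrays and belonged to 11 of the called miRNAs. All 17 were lower, by -1.66 to -0.33. These probes make up the summed signal on which the calls were made, so their direction is no separate check.

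**Figure D2:**
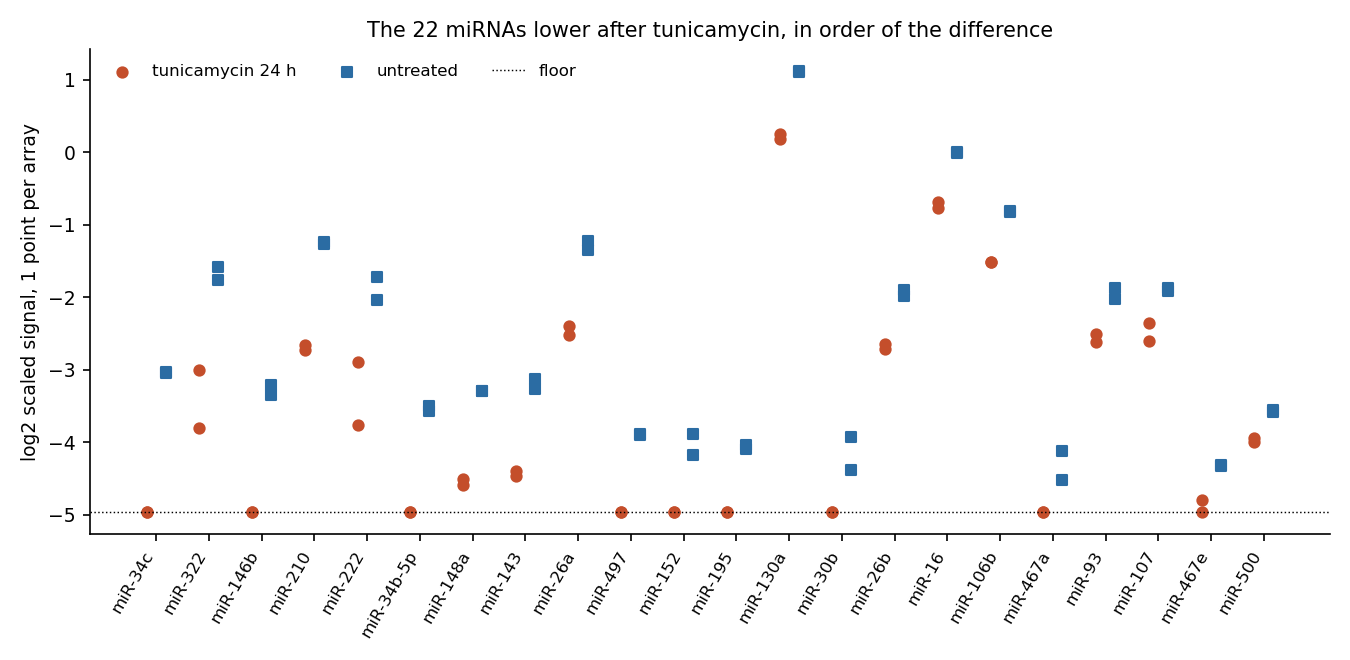
Log2 level on each array (vertical, 1 point per array, n = 2 per group) of the 22 miRNAs that passed the test, ordered by their difference; circles are 24 h cells, squares untreated cells and the dotted line the floor of -4.96. In each of the 22 both circles lie below both squares, and in 8 of them both circles lie at the floor.

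The count of calls depended on how the arrays were scaled and on the background correction. With median scaling or quantile normalization 3 passed, all lower; 62 passed without scaling, all lower, where the median of all miRNAs moved to -0.89, and 0 passed with the 75th percentile over all miRNAs, where it was 0.00 (7 at an unadjusted p under 0.05 by limma). Agilent's total gene signal gave 0 calls (27 unadjusted) and turned 5 of the 22 to an increase, and normexp background correction gave 0 calls (1 unadjusted), with 19 of the 22 turned to an increase while the median of all miRNAs moved to 0.75. Leaving out 1 array gave 7 calls without 24 h replicate 2, 13 without 24 h replicate 1, 10 without untreated replicate 1, 12 without untreated replicate 2, and 47 when either KO 24 h array was dropped. For all 22 both 24 h arrays lay below both untreated arrays, so no omission of 1 array could turn the direction. Over the 12 omissions the difference ran from -1.47 to -1.41 for miR-210 and from -1.88 to -1.01 for miR-222. For the 8 calls at the floor on both 24 h arrays, miR-497, miR-195, miR-34c and miR-152 among them, no spread was measured in 24 h cells.

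Among the miR-15/16 seed family, 4 of 6 tested members passed, all lower, against 15.2% of all miRNAs tested. The family's median difference was -0.81, against -0.17 over all tested miRNAs, and for all 6 members both 24 h arrays lay below both untreated arrays. miR-322, the mouse counterpart of human miR-424, had levels of -3.00 and -3.80 in 24 h cells, against -1.76 and -1.58 in untreated cells. Its 24 h arrays lay far below the untreated ones but 0.80 apart from each other, and its difference of -1.73 ± 0.28 (SE, n = 2 per group; adjusted p = 0.00816) corresponds to a 3.33-fold lower level. Without untreated replicate 2 its adjusted p was 0.0543. miR-16 was at -0.76 and -0.69 in 24 h cells, against -0.01 and 0.00 in untreated cells. The groups were well separated, with a difference of -0.72 ± 0.12 (adjusted p = 0.00816, 1.65-fold lower), and the call was lost without either 24 h array, at an adjusted p of up to 0.0507.

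miR-497 was at the floor on both 24 h arrays, against -3.89 and -3.90 in untreated cells, which is at least 1.58-fold lower (adjusted p = 7.66e-05). miR-195 was at the floor on both 24 h arrays as well, against -4.09 and -4.04 in untreated cells, at least 1.41-fold lower (adjusted p = 0.000144). Both were dim even in untreated cells, and because they sat at the floor in every other group of the series their small p rests on little measured spread. The remaining members did not pass: miR-15a was at -0.06 and -0.06 in 24 h cells, against 0.63 and 0.55 in untreated cells (adjusted p = 0.0938), and miR-15b at 1.13 and 0.99, against 1.22 and 1.42 (adjusted p = 0.537).

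The family comes from separate places in the genome. The called pair miR-497 (chr11:70234730-70234751, plus strand) and miR-195 (chr11:70235062-70235082, plus strand) lies 310 bases apart, and both members had left the detectable range at 24 h. miR-16 is made from copies beside miR-15a (chr14:61632075-61632096, minus strand, within the span of Dleu2) and beside miR-15b (chr3:69009775-69009796, plus strand, within the span of Smc4), so its signal cannot be divided between them. Of its neighbours, miR-15a differed by -0.64 ± 0.23 and miR-15b by -0.26 ± 0.25. miR-322 (chrX:53054306-53054327, minus strand) lies in an X-linked cluster with miR-503, which was well above background on 1 of the 2 untreated arrays and on neither 24 h array and was not tested.

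Among 11 p53-linked miRNAs on the array 6 were tested and 4 passed, all lower, against 15.2% of all tested: miR-34c, miR-34b-5p, miR-107 and miR-143. The list's median was -1.20. Of the others, miR-194 was at -3.54 and the floor in 24 h cells, against the floor on both untreated arrays (0.71 ± 0.50, adjusted p = 0.397). miR-34b and miR-34c are made from a shared transcript and are direct targets of p53. miR-34c was at the floor on both 24 h arrays, against -3.04 and -3.03 in untreated cells, at least 2.87-fold lower (adjusted p = 0.00116). miR-34b-5p was also at the floor on both, against -3.56 and -3.50 in untreated cells, at least 2.04-fold lower (adjusted p = 0.0135). The relative miR-34a, from a gene on another chromosome (chr4:150068473-150068494, plus strand), was at -3.42 and -3.05 in 24 h cells, against -2.11 and -2.02 in untreated cells, and did not pass (-1.17 ± 0.41, adjusted p = 0.0941) although its groups did not overlap. The miR-34b-5p call was lost without any 1 of the 4 arrays compared, at an adjusted p of up to 0.0840.

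miR-107 was at -2.36 and -2.60 in 24 h cells, against -1.91 and -1.87 in untreated cells (-0.59 ± 0.14, adjusted p = 0.0260). Its 1-base relative miR-103 was at -2.12 and -2.40, against -1.87 and -1.87 (-0.39 ± 0.17, adjusted p = 0.161), lower on both arrays but not past the threshold. miR-143, which with miR-145 promotes the contractile state of smooth muscle and is found in mesenchymal cells, was at -4.39 and -4.47 in 24 h cells, against -3.13 and -3.27 in untreated cells (-1.23 ± 0.21, adjusted p = 0.00978). Its direction turned with Agilent's total gene signal, to 2.29. The calls of miR-107 and miR-143 were lost without untreated replicate 1 or 24 h replicate 2, at adjusted p of up to 0.177 and 0.0811, and that of miR-107 also without untreated replicate 2.

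miR-210, a textbook target of the hypoxia factor HIF-1 that dampens mitochondrial respiration through Iscu, was at -2.72 and -2.66 in 24 h cells, against -1.26 and -1.24 in untreated cells. The replicates lay close together in both groups, and the difference of -1.44 ± 0.18 (adjusted p = 0.00314) is a 2.72-fold lower level. It remained past the threshold without any 1 array. miR-26a and miR-26b, which share a seed and lie within the spans of Ctdsp2 and Ctdspl (miR-26a) and Ctdsp1 (miR-26b), both passed. miR-26a was at -2.40 and -2.53 in 24 h cells, against -1.22 and -1.34 in untreated cells (-1.18 ± 0.15, adjusted p = 0.00333, 2.26-fold lower). miR-26b was at -2.65 and -2.71, against -1.90 and -1.98 (-0.74 ± 0.16, adjusted p = 0.0232). Their levels were separated by more than the spread of replicates, but the call of miR-26b was lost without any 1 of the 4 arrays compared, at an adjusted p of up to 0.141.

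miR-130a had the brightest signal of the miRNAs that passed. It is known for repressing antiangiogenic homeobox genes in human endothelial cells and was at 0.26 and 0.18 in 24 h cells, against 1.12 and 1.11 in untreated cells (-0.89 ± 0.14, adjusted p = 0.00636, 1.86-fold lower). Without 24 h replicate 2 its adjusted p was 0.0502. miR-148a was at -4.58 and -4.50 in 24 h cells, against -3.29 and -3.29 in untreated cells (-1.25 ± 0.24, adjusted p = 0.0135), and its seed relative miR-152 (chr11:96850439-96850459, plus strand, within the span of Copz2) was at the floor, against -3.89 and -4.17, at least 1.44-fold lower (adjusted p = 0.00333). These low signals turned upward with Agilent's total gene signal, to 1.19 for miR-148a and 0.77 for miR-152, and the miR-148a call was lost without any 1 of the 4 arrays compared, at an adjusted p of up to 0.0840.

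Among inflammatory miRNAs, miR-146b passed and its relative miR-146a did not. miR-146b was at the floor in 24 h cells, against -3.21 and -3.35 in untreated cells, at least 2.42-fold lower (adjusted p = 0.0134). miR-146a was at -3.35 and -4.96 in 24 h cells, against -2.18 and -2.27 in untreated cells. Its difference was -1.93 ± 0.55, but its 24 h arrays lay 1.60 apart and its adjusted p was 0.0580. miR-155, a product of activated immune cells, was at -2.48 and -2.05, against -2.21 and -2.11, and the groups overlapped. The call of miR-146b was lost without any 1 of the 4 arrays compared, at an adjusted p of up to 0.0840.

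The remaining calls were small or dim. miR-30b was at the floor, against -3.92 and -4.38 in untreated cells, at least 1.32-fold lower, and the other 4 tested members of the miR-30 family did not pass. miR-467a and miR-467e, of the repeat-rich cluster in an intron of Sfmbt2, were each at least 1.18-fold lower. miR-500 was at -3.94 and -4.00 in 24 h cells, against -3.58 and -3.56 in untreated cells (-0.40 ± 0.09, adjusted p = 0.0232). Each of these 4 calls was lost without either 24 h array. Those of miR-500 and miR-467e were also lost without either untreated wild-type array, and that of miR-30b without untreated replicate 1. The calls of miR-467e and miR-30b were lost without either untreated KO array as well.

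Neighbours on a chromosome did not all share a direction. The miR-17-92 cluster, known for driving proliferation, and its paralogs had 9 tested members, of which 2 passed, both lower, near the share of 15.2% over all tested, and the list's median was 0.35 (-0.47 without scaling). The 3 of the cluster in Mcm7 on chromosome 5 lay below untreated cells on both arrays: miR-106b was at -1.51 and -1.51 in 24 h cells, against -0.81 and -0.82 in untreated cells (-0.70 ± 0.16, adjusted p = 0.0249), miR-93 at -2.61 and -2.51, against -1.86 and -2.02 (-0.62 ± 0.15, adjusted p = 0.0282), and miR-25 at -1.71 and -1.78, against -1.35 and -1.27 (adjusted p = 0.120). The calls of miR-106b and miR-93 were lost without any 1 of the 4 arrays compared, at adjusted p of up to 0.139 and 0.171, and miR-93 turned to 2.13 with Agilent's total gene signal.

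The 5 tested members of the chromosome 14 cluster lay above untreated cells on both arrays and none passed. Of these, miR-19b and miR-92a also have copies on chromosome X, between which their signal cannot be divided, and the difference between the loci was not tested. miR-19b, the brightest of them, was at 0.22 and 0.71 in 24 h cells, against 0.00 and -0.04 in untreated cells (0.49 ± 0.43, adjusted p = 0.486). miR-20a, which has the seed of miR-106b and miR-93, was at -0.54 and 0.01, against -0.62 and -0.61. In each of these the second 24 h array was the higher, and without scaling miR-19b was at -0.34. The 5 tested members of the miR-23, miR-27 and miR-24 clusters had a median of 0.27 (-0.55 without scaling) and none passed. miR-23a (0.77 and 0.63, against 0.37 and 0.37) and miR-27a (0.27 and 0.44, against -0.01 and -0.01) lay above untreated cells, while miR-24, made beside them on chromosome 8 and also on chromosome 13, lay below (0.29 and 0.31, against 0.49 and 0.35).

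miR-221 and miR-222, which share a seed and lie 571 bases apart (chrX:19146307-19146329 and chrX:19146901-19146923, minus strand), had differences of opposite sign. They are known for repressing the cell cycle inhibitor p27. miR-222 was at -2.89 and -3.76 in 24 h cells, against -1.72 and -2.04 in untreated cells (-1.44 ± 0.35, adjusted p = 0.0302, 2.72-fold lower). miR-221 was at -0.83 and -0.64, against -1.38 and -1.33 (0.62 ± 0.21, adjusted p = 0.0909), and did not pass. Before scaling the signals of miR-221 overlapped, at 162.1 and 227.8 in 24 h cells, against 221.8 and 220.9 in untreated cells, so its sign rests on the scaling. The 24 h levels of miR-222 lay 0.87 apart, and its call was lost without untreated replicate 1 or 2, 24 h replicate 2 or either KO 12 h array, at an adjusted p of up to 0.188. The difference between the pair was not tested.

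The group of miR-214, both arms of miR-199a and miR-199b* is known from skeletal and fibrotic tissue, and miR-199a lies within the spans of Dnm3os and Dnm2. It had 0 of 4 members past the threshold by limma, while all 4 lay below untreated cells on both arrays, with a median of -1.06. miR-214 was at -1.90 and -2.66 in 24 h cells, against -0.77 and -0.91 in untreated cells (-1.44 ± 0.49, adjusted p = 0.0909). miR-199a-3p was at 0.02 and -0.47, against 0.81 and 0.82, and miR-199a-5p at -3.31 and -3.61, against -2.35 and -2.43, both with an adjusted p of 0.0909. The 2 arms of miR-199a, whose hairpin has a copy on chromosome 1 and another on chromosome 9, thus differed by -1.04 and -1.07. miR-199b*, the brightest star-strand name, was at -1.46 and -1.90, against -1.08 and -1.05 (adjusted p = 0.127), and of all 11 tested star strands 0 passed by limma.

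**Figure D3:**
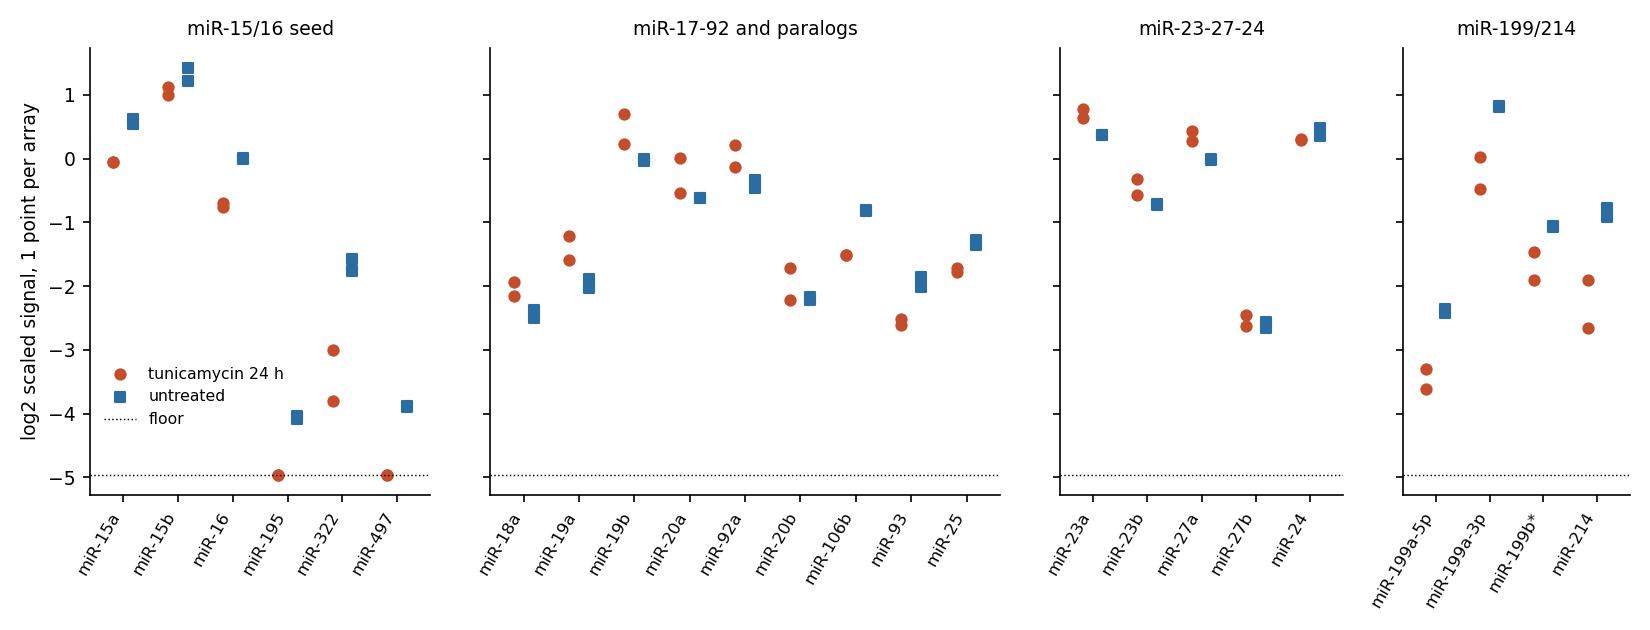
Log2 level on each array (vertical, 1 point per array) for the tested members of 4 families or clusters; circles are 24 h cells, squares untreated cells and the dotted line the floor. The 6 members of the miR-15/16 seed family and the 4 of the miR-199 and miR-214 group lie lower in 24 h cells, while within the miR-17-92 group the 3 members at the right, from the Mcm7 locus, lie lower and 5 others higher.

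Of 29 miRNAs on the array that earlier work ties to the unfolded protein response, 20 were tested and 4 passed, all lower, near the share of 15.2% over all tested: miR-322, miR-222, miR-106b and miR-93. The list's median of -0.33 compares with -0.17 over all tested miRNAs, and 13 members lay below and 3 above untreated cells on both arrays. The lists overlap, so these 4 are already described above. miR-125b-5p, the brightest member, was at 2.52 and 2.19 in 24 h cells, against 2.54 and 2.39 in untreated cells (-0.11 ± 0.20, adjusted p = 0.783). Its groups overlapped, and its sign turned with the brightest probe alone (0.09) and when the 75th percentile covered all miRNAs (0.10). miR-30d, reported to be induced through ER stress sensors, and miR-30c were at -0.32 ± 0.20 and 0.08 ± 0.17.

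Bright miRNAs were among those that did not pass. miR-21 was at 4.66 and 4.38 in 24 h cells, against 5.17 and 5.21 in untreated cells (-0.67 ± 0.19, adjusted p = 0.0517). Its groups did not overlap. The let-7 family, known for restraining growth, had 0 of 9 members past the threshold by limma and a median of -0.10, which was 0.08 after quantile normalization and 0.11 when the 75th percentile covered all miRNAs. let-7f, the brightest member, was at 1.46 and 1.28, against 1.47 and 1.48 (-0.10 ± 0.20, adjusted p = 0.796). The 2 next largest falls among uncalled miRNAs with separate groups were those of miR-690 (-1.26 ± 0.71) and miR-342-3p (-1.25 ± 0.36).

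No increase passed the test by limma as fitted here. Other settings gave up to 7 higher calls, among them 7 with array weights, 5 with the brightest probe and 5 with the compared arrays alone. The nearest, singled out after its values were seen, was miR-365, at -1.93 and -1.94 in 24 h cells, against -2.56 and -2.90 in untreated cells (0.80 ± 0.22, adjusted p = 0.0517, 1.74-fold). Before scaling its signals overlapped, at 75.5 and 92.5 in 24 h cells, against 97.6 and 74.2 in untreated cells. The largest increases with separate groups did not pass. The 24 h arrays lay 2.07 apart for miR-207, 1.49 for miR-877*, 2.50 for miR-1196 and 0.75 for miR-468. On the wild-type 12 h arrays miR-468 was at -4.96 and 0.18, and the fit takes 1 spread for all groups. miR-207 was at -2.50 and -0.43 in 24 h cells, against -4.12 and -4.92 in untreated cells, where it was not well above background (adjusted p = 0.461). miR-877* (-1.61 and -0.12, against -3.20 and -3.84), miR-1196 (-3.70 and -1.20, against -4.84 and -4.96) and miR-468 (-2.43 and -1.69, against -4.51 and -4.51) had adjusted p of 0.467, 0.517 and 0.387, and miR-468 turned to -0.54 with Agilent's total gene signal.

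The spread between replicates was larger on the 24 h arrays than on the untreated arrays. The 2 arrays of a group differed by a median of 0.19 per miRNA in 24 h cells and 0.09 in untreated cells, and by more than 1 for 13 miRNAs in 24 h cells and 0 in untreated cells. None of those 13 was among the 22 calls. Of the 13, 11 were higher on 24 h replicate 2, miR-146a and miR-194 being the others. The miRNAs named miR-297, miR-466, miR-467 or miR-669 were grouped by name, and many of them lie in the repeat-rich cluster of Sfmbt2, though miR-467f is placed by RefSeq on chromosome 11 within the span of Fxr2. This repeat group had 16 tested members and held 5 of the 13. Its median difference from untreated cells was -0.03 on 24 h replicate 1 and 0.98 on replicate 2. The following sequences are shown, chosen after their values were seen. On the wild-type 24 h arrays the replicate gap was wide for the first pair, which carry ca repeats. It was narrower there for the second pair, which carry ug repeats.
miR-467f: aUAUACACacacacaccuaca
miR-574-3p: cACGCUCAugcacacacccaca
miR-574-5p: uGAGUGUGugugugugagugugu
miR-1187: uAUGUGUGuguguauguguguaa
miR-574-3p was at -2.45 and 0.41 in 24 h cells, against -2.70 and -3.37 in untreated cells. The other arm of its hairpin, miR-574-5p, was at -1.02 and -0.61, against -1.36 and -1.69. miR-467f was at -2.81 and -0.50, against -2.56 and -2.95, and miR-1187 at -1.64 and -1.11, against -2.13 and -2.55. The wild-type 12 h arrays were scanned with the 24 h arrays of the same replicate number. They gave miR-574-3p -4.96 and 1.51 and miR-467f -4.96 and 0.51, so the gap ran the same way at both times. The second pair had wide gaps after 12 h as well, at -2.76 and 0.68 for miR-574-5p and -3.56 and 0.21 for miR-1187. Whether the gap follows the kind of repeat was not tested. The KO arrays of these scans gave miR-574-3p -4.96 and 1.51 after 12 h and -4.96 and 0.38 after 24 h. Over the 145 miRNAs the replicate differences correlated at 0.83 between the wild-type and KO 24 h groups. The gap was thus not particular to wild-type cells, and the part of the scan was not tested. miR-669f, the brightest member of the repeat group, was at -1.50 and -0.63 in 24 h cells, against -1.25 and -1.30 in untreated cells (0.21 ± 0.97, adjusted p = 0.936), and its sign turned without 24 h replicate 2 (-0.22) or without scaling (-0.61). Of all 611 mouse miRNAs, 15 were well above background on 24 h replicate 2 alone of the 4 arrays, 7 of them of the repeat group, against 1 on 24 h replicate 1 alone. Local background on 24 h replicate 2 reached 13725 at single spots, against at most 33.0 on 24 h replicate 1 and 48.0 on the untreated wild-type arrays. On replicate 2 of the KO cells it reached 33.0 after 12 h and 38.0 after 24 h. Local background reached 522 on wild-type 12 h replicate 2 and 172397 on untreated KO replicate 1. The part of local background in these gaps was not tested.

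**Figure D4:**
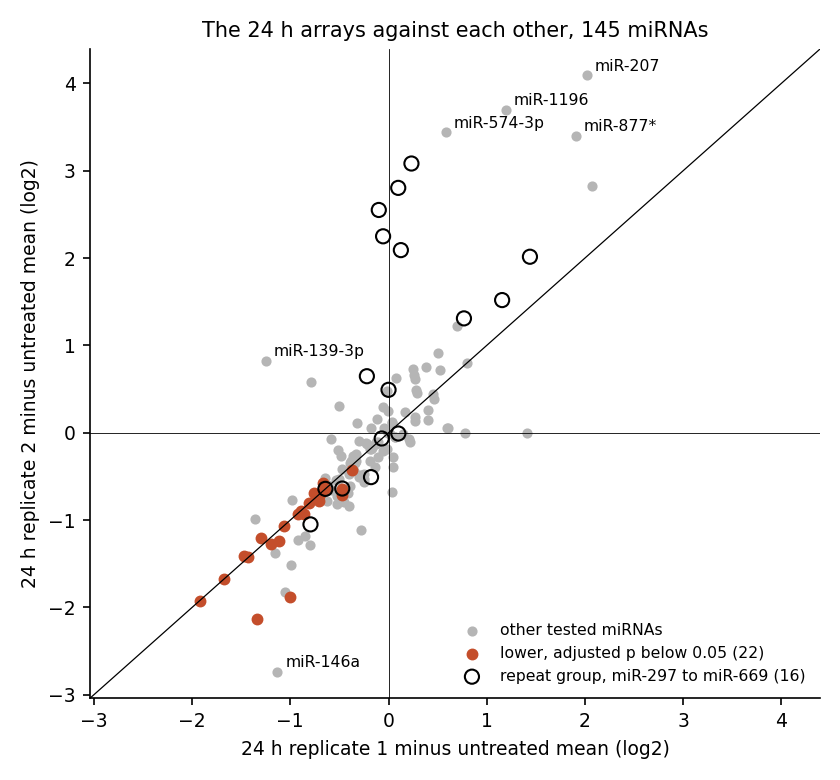
Log2 level on 24 h replicate 2 (vertical) against that on 24 h replicate 1 (horizontal), each minus the mean of the untreated arrays, for the 145 tested miRNAs; the diagonal marks equal values. The 22 called miRNAs (filled, coloured) lie along the diagonal below 0, while part of the repeat group (open circles) and miR-574-3p, miR-1196 and miR-207 lie well above it.

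The 24 h levels were next set against those of wild-type cells after 12 h, which asks whether the response went on changing. By limma 0 of 145 miRNAs (0%) passed in either direction, and 5 (3.45%) had an unadjusted p under 0.05. The median difference of 24 h from 12 h was 0.16. The smallest p belonged to miR-500, miR-125a-5p and miR-720. miR-720, an array name that miRBase has since withdrawn as a tRNA fragment, was at 2.92 and 2.85 after 24 h, against 2.56 and 2.40 after 12 h (0.41 ± 0.15), and within each scan the difference was 0.37 and 0.46. miR-125a-5p, of a family tied to differentiation, was at -0.37 and -0.56 after 24 h, against -0.86 and -0.77 after 12 h, and within each scan the difference was 0.49 and 0.20. miR-500 differed by 0.27 ± 0.09, and by 0.30 and 0.23 within each scan. All 3 were lower after 24 h than after 12 h without scaling, at -0.22 for miR-720, -0.29 for miR-125a-5p and -0.37 for miR-500.

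The 22 miRNAs called at 24 h differed from their 12 h levels by -0.09 to 0.28. Both comparisons use the same 24 h arrays, and a miRNA at the floor at both times has a difference of 0 by construction. For those above the floor, miR-210 was at -2.72 and -2.66 after 24 h, against -2.82 and -3.13 after 12 h, miR-26a at -2.40 and -2.53, against -2.39 and -2.60, miR-130a at 0.26 and 0.18, against 0.17 and -0.07, and miR-322 at -3.00 and -3.80, against -3.92 and -3.45. miR-34c, miR-34b-5p, miR-146b, miR-497 and miR-195 were at the floor on all 4 arrays. The groups overlapped for miR-26a and miR-322, and the 24 h arrays lay above the 12 h arrays for miR-210 and miR-130a. The median SE of a difference was 0.24 over the 145 miRNAs, which limits what this comparison could detect. The pooled SD was 1.23 for the wild-type 12 h pair, against 0.51 for the 24 h pair, while the fit takes 1 spread for all groups.

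The same 24 h of tunicamycin was tested for a different effect in wild-type and in KO cells, as the wild-type response minus the KO response. By limma 12 of 145 miRNAs (8.28%) passed, 11 (7.59%) with a more negative response in wild-type cells and 1 (0.690%) with a more positive one, around a median difference of responses of -0.34, and 36 (24.8%) had an unadjusted p under 0.05. This comparison shares the wild-type arrays with the one above and adds 4 KO arrays, of which the 24 h pair had a pooled SD of 0.95, against 0.51 for the wild-type 24 h pair and 0.15 for the untreated wild-type pair.

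The miR-34 family had the largest differences of response. miR-34c was at -4.96 and -4.96 in wild-type 24 h cells, against -3.04 and -3.03 in untreated wild-type cells, and in KO cells at -2.89 and -2.19 after 24 h, against -3.60 and -3.66 untreated. It was thus below its untreated level on both wild-type arrays and above it on both KO arrays, and the responses differed by -3.01 ± 0.28 (adjusted p = 0.000586). miR-34b-5p was at the floor on both wild-type 24 h arrays, against -3.56 and -3.50 untreated, and in KO cells at -3.70 and -2.71, against -4.47 and -4.39 (-2.65 ± 0.39, adjusted p = 0.00739). miR-34a was at -3.42 and -3.05 in wild-type 24 h cells, against -2.11 and -2.02 untreated, and in KO cells at -2.35 and -0.95, against -3.15 and -3.02 (-2.60 ± 0.59, adjusted p = 0.0430). In all 3 the scaled levels of the wild-type and KO arrays lay on opposite sides of their untreated levels. The scaling signal was 203.5 and 566.3 on the KO 24 h arrays, against 709.5 and 791.2 on the untreated KO arrays. Before scaling, KO 24 h replicate 1 lay below both untreated KO arrays for all 3 and replicate 2 above. The KO rise on replicate 1 thus rests on the scaling. miR-34b-5p was well above background on only 1 KO 24 h array. With normexp all 3 differences of response turned positive, to 0.93 for miR-34c, 1.30 for miR-34b-5p and 0.23 for miR-34a, and none passed. The call of miR-34a was lost without any 1 of the 10 arrays outside the KO 24 h pair, at an adjusted p of up to 0.146, and with quantile normalization 0 of the 3 passed.

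Several other differences are limited by the floor in KO cells. miR-210 was at -2.72 and -2.66 in wild-type 24 h cells, against -1.26 and -1.24 untreated, but in KO cells at -4.60 and -4.89, against the floor on both untreated arrays, so a fall could not have been seen there (-1.66 ± 0.25, adjusted p = 0.00776). miR-146b likewise was at the floor in untreated KO cells (-2.20 ± 0.44, adjusted p = 0.0324), and its call was lost without any 1 of the wild-type arrays or of the untreated KO arrays, at an adjusted p of up to 0.133. miR-497 and miR-195 were at the floor in all KO groups, which makes their difference of response equal to their wild-type response. miR-455, within the span of Col27a1, was the single miRNA with a more positive wild-type response, and it was at the floor in all wild-type groups, against -3.69 and -3.76 in untreated KO cells and the floor in KO 24 h cells, so its value of 1.23 ± 0.09 (adjusted p = 0.000407) describes the KO cells alone.

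Above the floor in both genotypes, miR-26a was at -2.40 and -2.53 in wild-type 24 h cells, against -1.22 and -1.34 untreated, and in KO cells at -1.17 and -1.56, against -1.20 and -1.12 (-0.97 ± 0.22, adjusted p = 0.0430). miR-130a was at 0.26 and 0.18 in wild-type 24 h cells, against 1.12 and 1.11 untreated, and in KO cells at 0.38 and 0.01, against 0.29 and 0.26 (-0.81 ± 0.19, adjusted p = 0.0468). The untreated wild-type arrays were thus the highest of these 8 for miR-130a, and the 24 h arrays of the genotypes overlapped. miR-148a was at -4.58 and -4.50 in wild-type 24 h cells, against -3.29 and -3.29 untreated, and in KO cells at -3.79 and -4.17, against -4.31 and -4.20 (-1.53 ± 0.34, adjusted p = 0.0430). Outside the naming rule, let-7c also passed (-0.64 ± 0.15, adjusted p = 0.0430). The response of miR-214, at -1.90 and -2.66 in wild-type 24 h cells, against -0.77 and -0.91 untreated, differed from that in KO cells, at 0.51 and -1.10, against 1.00 and 0.93, by -0.18 ± 0.69 (adjusted p = 0.946).

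**Figure D5:**
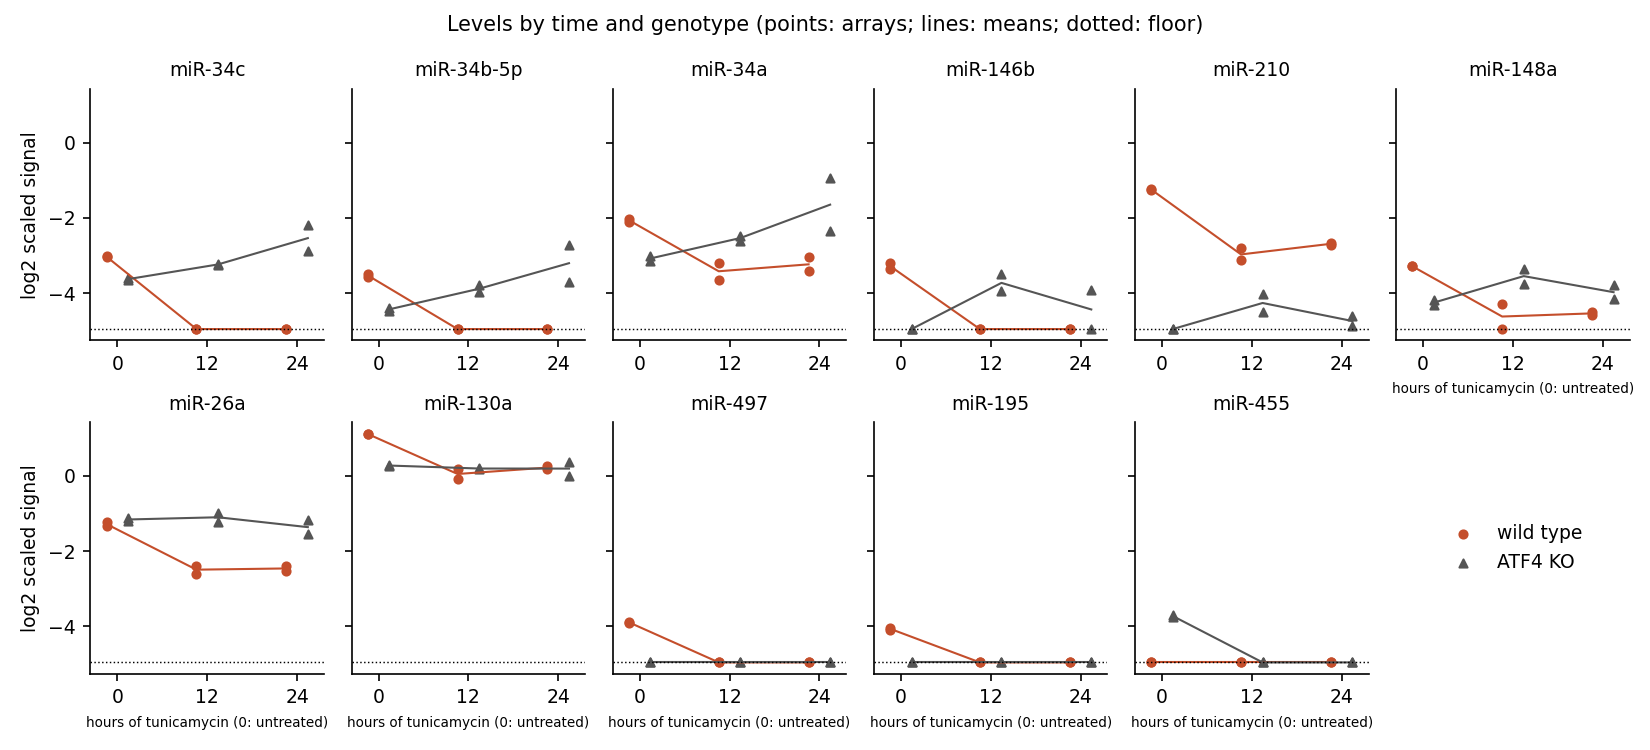
Log2 level (vertical) against hours of tunicamycin (horizontal, 0 for untreated) for 11 miRNAs whose wild-type and KO responses at 24 h differed past the threshold; points are arrays (n = 2 per group), lines join group means and the dotted line is the floor of -4.96. The wild-type levels of the miR-34 members lie lower after treatment and the KO levels higher, while miR-497, miR-195 and miR-455 leave the floor in 1 untreated group alone.

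The count of such differences also depended on the processing. It was 5 with median scaling, 1 after quantile normalization and 0 when the 75th percentile was taken over all miRNAs (4 at an unadjusted p under 0.05 by limma), and without scaling it was 15, of which 7 were more positive and 8 more negative in wild-type cells. Without 1 array it ran from 6 without wild-type 24 h replicate 2 or untreated KO replicate 1 to 35 without KO 24 h replicate 1, and was 33 without KO 24 h replicate 2.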

How the data were processed

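Mouse miRNAs were measured on Agilent 1-colour arrays and read, per the submitters' processing notes, with Agilent Feature Extraction 10.7.1.1. The spot values the authors deposited are intensity in arbitrary units: per the file headers the processed signal has the background subtracted and a spatial trend removed, with no scaling between arrays. The authors' value table is on a log2 scale, and each value equals the log2 of the deposited total gene signal, with no centring. Other deposited columns, per the file headers, hold flags of 0 or 1.

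Processed signals of a probe's spots were averaged without controls and outliers, then summed per miRNA. For scaling, each array's 75th percentile was taken over 82 miRNAs that all 12 arrays showed well above background. Values under 0.0322 were set to that floor before log2 was taken. A probe was well above background where 50% or more of its spots were flagged so, and a miRNA where any probe was. Tested were 145 mouse miRNAs that some group showed well above background on both its arrays, using limma 3.58.1 (R 4.3.3) over all 12 arrays in 6 groups, with 6 residual degrees of freedom, a prior of 1.03 and Benjamini-Hochberg adjustment. Contrasts were 24 h against untreated and against 12 h in wild-type cells, and the wild-type minus the KO response at 24 h. The fit was tested on simulated data.

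Named were all calls at 24 h, the 4 largest uncalled differences each way with separate groups, the brightest member of 6 lists, and for the other contrasts up to 5 calls each way or the 3 smallest p. Family members are given as examples of their list. The members, the 27 lists and this rule were chosen with earlier results of these data known. Alternatives covered background correction, measure, scaling, floor, filter, samples, weights, blocks (statmod 1.5.0) and leaving out each array. Normexp used the median spot signal, since no mean spot signal is in the files used. RefSeq names were matched with Python 3.11.15 and pandas 2.3.3, and figures drawn with matplotlib 3.10.9.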

Additional observations from a re-analysis of the deposited data

Results flagged for a closer look

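For 11 named miRNAs the response to 24 h of tunicamycin differed between wild-type and KO cells by limma's test of the difference itself, as the wild-type response minus the KO response on the log2 scale. These were miR-34c (-3.01), miR-34b-5p (-2.65), miR-34a (-2.60), miR-146b (-2.20), miR-210 (-1.66), miR-148a (-1.53), miR-497 (-1.07), miR-26a (-0.97), miR-195 (-0.89), miR-130a (-0.81) and miR-455 (1.23). The responses themselves were -1.92 in wild-type cells and 1.09 in KO cells for miR-34c, -1.43 and 1.23 for miR-34b-5p, and -1.17 and 1.43 for miR-34a. For miR-26a they were -1.18 in wild-type cells and -0.20 in KO cells, and for miR-130a -0.89 and -0.08. miR-497 and miR-195 were at the floor in every KO group, miR-455 in every wild-type group, and miR-146b and miR-210 in untreated KO cells.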

How the results depend on the processing

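Of the 22 miRNAs lower at 24 h, all 22 remained past the threshold under array weights by group, a scan as a random block and a filter on any array, 21 without scaling, 19 with the brightest probe, 18 and 16 with a floor at 0.5 and 2 times its value, 17 with the compared arrays alone, 16 with the wild-type arrays alone and 3 each with median scaling and quantile normalization. The deposited table gave a value for 15 of the 22, of which 8 remained and 4 reversed, within 22 calls of its own. The count of calls at 24 h was 0 with normexp, 0 with normexp without spots of outlying local background, 0 with Agilent's total gene signal and 0 when the 75th percentile covered all miRNAs. It was 3 with median scaling, 3 with quantile normalization, 62 without scaling, 8 with miRNAs well above background on all 4 arrays, 40 with the compared arrays alone (5 higher, 35 lower) and 61 with array weights (7 higher, 54 lower). The brightest probe gave 24, of which 5 were higher and 19 lower. The median of all miRNAs at 24 h, -0.17 as reported, was 0.75 and 0.29 with the normexp settings, -0.05 with the total gene signal, 0.00 when the 75th percentile covered all miRNAs and -0.89 without scaling. The count for the difference of responses was 0 with both normexp settings, 3 with the total gene signal, 1 with the deposited table, 5 with median scaling, 1 with quantile normalization, 0 when the 75th percentile covered all miRNAs, 1 with miRNAs well above background on all 4 arrays, 7 with the compared arrays alone and 23 with the scan as a random block. With 1 array left out, the counts ran from 7 to 47 at 24 h, from 6 to 35 for the difference of responses, and were 0 throughout for 24 h against 12 h, which also had 0 calls under every other setting tried. The scan as a fixed block, chosen after seeing the data, gave 0 calls for 24 h against 12 h and 16 for the difference of responses.

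With the replicate number as a block 28 miRNAs passed at 24 h (1 higher, 27 lower) and all 22 calls remained, while the difference of responses had 14 and 24 h against 12 h had 0. The labels do not pair the arrays by number: the differences between replicates 1 and 2 correlated at -0.43 across the 145 miRNAs between the 24 h and untreated wild-type groups, and at 0.74 between the 24 h and 12 h wild-type groups, which share scans.

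Under normexp the difference at 24 h turned to an increase for miR-107 (0.46), miR-143 (0.80), miR-146b (0.75), miR-148a (0.83), miR-152 (1.02), miR-195 (0.97), miR-210 (0.012), miR-222 (0.36), miR-26a (0.079), miR-26b (0.43), miR-30b (1.01), miR-322 (0.25), miR-34b-5p (0.88), miR-34c (0.72), miR-467a (1.03), miR-467e (1.04), miR-497 (0.91), miR-500 (0.98), miR-93 (0.44), miR-146a (0.48), miR-690 (0.50), miR-342-3p (0.62) and miR-199b* (0.15). The difference of responses turned for miR-34c (0.93), miR-34b-5p (1.30), miR-34a (0.23), miR-146b (1.37) and miR-210 (0.67). Leaving out 15 spots of outlying local background on 3 arrays, it still turned for miR-143 (0.16), miR-148a (0.18), miR-152 (0.34), miR-195 (0.24), miR-30b (0.35), miR-34b-5p (0.19), miR-34c (0.019), miR-467a (0.35), miR-467e (0.41), miR-497 (0.18), miR-500 (0.37), miR-93 (0.00398) and miR-342-3p (0.0061). In the difference of responses miR-455 turned with those spots left out (-0.11), but not with normexp on all spots. The offset of 50 that this setting adds to every spot came, on the normexp scale, to 0.125 and 0.136 of the scaling signal on the 24 h arrays, against 0.0721 and 0.0739 on the untreated arrays, so it raises dim miRNAs more on the 24 h arrays.

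With the total gene signal miR-143 (2.29), miR-148a (1.19), miR-152 (0.77), miR-500 (0.45), miR-93 (2.13) and miR-468 (-0.54) turned at 24 h. With the deposited table miR-143 (1.54), miR-148a (0.44), miR-152 (1.60), miR-93 (1.37), miR-468 (-1.29), miR-19b (-0.33) and miR-669f (-0.60) turned at 24 h, and miR-125a-5p (-0.30) and miR-720 (-0.23) from 12 h to 24 h. Without scaling miR-19b (-0.34) and miR-669f (-0.61) turned at 24 h, and miR-500 (-0.37), miR-125a-5p (-0.29) and miR-720 (-0.22) from 12 h to 24 h. miR-125b-5p and let-7f turned with the brightest probe (0.089 and 0.056) and when the 75th percentile covered all miRNAs (0.096 and 0.11). Leaving out 24 h replicate 1 or 2 gave -0.27 or 0.049 for miR-125b-5p and 0.65 or -0.22 for miR-669f. The cause of these changes was not tested, and no other offset was tried.

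Precision is limited by 2 arrays per group and by signal over background: for 9 of the 22 calls neither 24 h array was well above background, the pooled SD was 0.51 in 24 h cells and 0.15 in untreated cells while the fit takes 1 spread for all groups, and slide and treatment cannot be told apart.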

Other observations

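Of the 39 viral miRNA names, which mouse fibroblasts do not encode, mghv-miR-M1-2 was well above background on both 24 h arrays (-2.39 and -2.19) and on 1 of the untreated arrays (-2.00 and -3.78 on the log2 scale).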
